A study of Mus musculus with 16 samples.

Results

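Whole striatal RNA was compared between mice whose astrocytes had been given a calcium pump by virus and mice given a control protein. The comparison used every library of the cleared striatal lysate (input), 8 of the 16 libraries measured, with 4 mice in each group. Levels are in CPM, reads scaled to the effective library size. A gene was tested when at least 4 of the 8 libraries reached 30.3 CPM, which 10 reads give at the median input library. Of 13277 genes listed, 5895 met that filter. The other 8 libraries, RNA precipitated with tagged astrocyte ribosomes from the same mice, entered only where a difference between the fractions was tested.

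All 8 mice were adults that carried both RiboTag, on a B6 background, and Aldh1l1-Cre/ERT2, an FVB line backcrossed to C57BL/6N. In cells where Cre has acted, RiboTag attaches a haemagglutinin tag to ribosomes, and ERT2 makes the Cre inducible. Control mice (Y481, Y482, Y483 and Y485) received an adeno-associated virus (AAV) for a control protein. PMCA mice (Y486, Y487, Y489 and Y490) received an AAV for hPMCA2w/b, a human form of plasma membrane calcium pump 2 that lowers calcium signals in the cell, and the study asked what lowering these signals in striatal astrocytes does to striatal circuits and behaviour. Not given in the sources used here are the promoter of the virus, the exact age and the time after injection. Both groups received a virus, so neither shows an untouched striatum. Whole lysate mixes all cell types, and fewer cells of a type and less RNA per cell cannot be told apart in it.

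Striatal tissue is made mostly of GABA-releasing projection neurons that receive dopamine, together with interneurons, astrocytes, oligodendrocytes and microglia. Astrocytes signal through transient rises of free calcium, and plasma membrane calcium ATPases push calcium out of the cell. Reactive astrocytes are known for raised Gfap and vimentin, and both astrocytes and microglia can make complement, class I antigen presentation proteins and interferon-induced proteins after injury, infection or inflammation.

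Input libraries held 198462 to 419458 reads over the listed genes, 286799 ± 87922 in control and 317415 ± 70488 in PMCA mice (mean ± SD, n = 4 each; exact permutation p = 0.629, two-sided), and 10898 to 12464 genes had a read (exact permutation p = 0.286). These are shallow libraries in which 1 read was worth 2.16 to 4.46 CPM. The ribosomal precursor RNA Rn45s took 4.42% to 8.04% of the reads in control mice and 1.58% to 3.67% in PMCA mice, with no overlap (exact permutation p = 0.0286, the smallest that 4 against 4 mice allow). On the leading principal component of 3454 genes (33.1% of the variance), Y481 at -22.6 and Y486 at -18.6, 1 mouse of each group, stood apart from the other 6 (0.73 to 12.6). Counts that lead a result are therefore also given without both. Projection neuron markers were tested for 24 of 27 genes, with Penk and Pde10a among those with the most reads, and markers of other brain regions for 0 of 14. Xist had 70 to 141 reads in Y481, Y482, Y486 and Y487 and at most 1 in the others, which alone had Y-linked reads (69 to 100 over 4 genes). Each group therefore held 2 mice of each sex, and with sex as a covariate the same 2 genes were called as without it. Y481 and Y486 both had Xist reads, so counts without them keep only Y482 and Y487 of that sex. Mitochondrially encoded genes are not analysed here.

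With PMCA, 2 of 5895 genes passed an adjusted p under 0.05 in limma, 0.0339% of the genes tested, and both were higher: C4b, a complement component, and H2-T23, a nonclassical class I antigen presentation gene. Of the 15 higher genes with the smallest p, these 2 included, 11 belonged to the complement and antigen presentation, interferon response, reactive astrocyte and microglia lists, which hold 39 (0.662%) of the genes tested. None of the first 15 genes with a lower level belonged to those lists. The lists were chosen with earlier results of these data known, so these counts are a description and not a test. Of the 39 list members tested, 4 passed the filter with no control library at 30.3 CPM, against 10 of all 5895 genes. At least 2 libraries of each group reached that level for 28 of the 39, against 5637 of all 5895 genes. In all, 212 genes (3.60%) had an unadjusted p under 0.05, with 137 higher (2.32%) and 75 lower (1.27%). The levels of all 4 PMCA mice lay above all 4 control mice for 87 genes (1.48%) and below them for 62 (1.05%). The median difference over all tested genes was 0.00 on the log2 scale, and 2959 of 5895 differences were above 0.

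C4b (chr17:34728139-34743902, mm10) encodes the fourth complement component, which is cleaved to tag surfaces for clearance. In the order of the mice given above, it stood at 98.1, 84.0, 132 and 92.1 CPM in control and 267, 194, 350.4 and 239.8 CPM in PMCA mice, from 22, 20, 51 and 34 and 74, 65, 114 and 111 reads. Every PMCA mouse lay above every control mouse. The log2 difference was 1.36 (SE 0.22, 95% interval 0.90 to 1.81; limma adjusted p = 0.0112), a rise of 2.56-fold. The call held without Y481 (limma adjusted p = 0.00507), Y483 (0.0101), Y486 (0.0150) or Y487 (0.00801) and was lost in the other cases: the adjusted p was 0.137 without Y482, 0.0539 without Y485, 0.228 without Y489, 0.0613 without Y490 and 0.283 without the variance trend and robust moderation, while the difference itself stayed between 1.21 and 1.49 when any single mouse was left out.

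H2-T23 (chr17:36029977-36032701) encodes Qa-1, a class I molecule that shows peptides to receptors of natural killer and T cells. Its levels were 35.7, 21.0, 36.1 and 16.2 CPM in control and 64.9, 98.5, 237 and 92.9 CPM in PMCA mice, from 8, 5, 14 and 6 and 18, 33, 77 and 43 reads. The groups did not overlap, and Y489 stood highest. The log2 difference was 2.05 (SE 0.38, 95% interval 1.26 to 2.84; limma adjusted p = 0.0464), a rise of 4.15-fold. It was no longer called without Y482 (0.247), Y483 (0.0522), Y485 (0.209), Y487 (0.123), Y489 (0.720) or Y490 (0.179; limma adjusted p in each case), and was called without Y481 (0.00507) or Y486 (0.0150). The same held with voom weights (limma adjusted p = 0.25), median-of-ratios scaling (0.0562), Rn45s left out of the library totals (0.0672), and no variance trend and robust moderation (0.290). With C4b it was called again, at adjusted p = 0.00352 for C4b and 0.00185 for H2-T23, when Y481 and Y486 were both left out, in a fit with 6 calls.

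**Figure D1:**
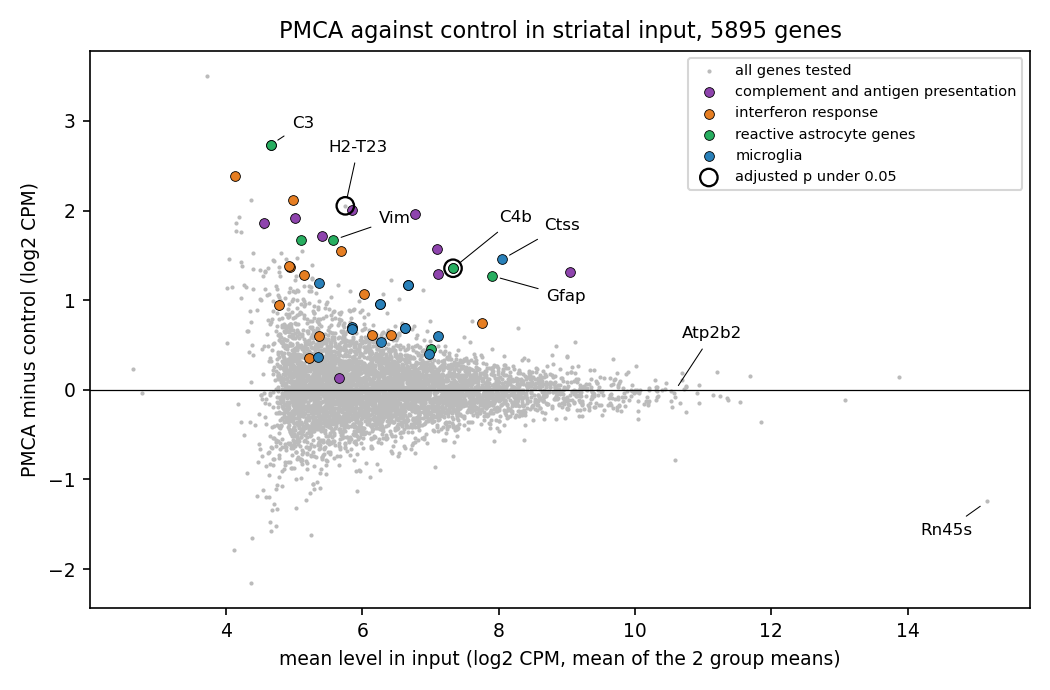
Each point is 1 of the 5895 genes tested, with its mean input level (log2 CPM) on the horizontal axis and its PMCA minus control difference (log2 CPM) on the vertical axis. Coloured points are tested members of 4 gene lists (a gene of several lists takes the last colour drawn), all 39 of them above 0, and rings mark C4b and H2-T23.

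The bases in front of 4 of these genes are shown because they hold the letters of the interferon-stimulated response element, the sequence bound by interferon-activated transcription factors. They come from RefSeq promoter windows (GRCm38.p6, the build also called mm10), read 5′ to 3′ in the direction of the gene and ending at the base before the start site. Capitals mark GAAANNGAAA or its reverse complement. H2-T23 lies on the minus strand, at chr17:36032702-36032861, and the other windows on the plus strand: B2m, the class I light chain, at chr2:122147527-122147686, Ifit3, an antiviral interferon-induced gene, at chr19:34583369-34583528, and Ctss, a lysosomal protease of microglia, at chr3:95526626-95526785. The window of Ifit3 lies before a start inside the span of its gene.
H2-T23: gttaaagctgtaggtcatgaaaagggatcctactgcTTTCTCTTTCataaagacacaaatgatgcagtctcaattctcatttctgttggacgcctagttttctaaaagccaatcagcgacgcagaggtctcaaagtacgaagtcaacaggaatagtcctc
B2m: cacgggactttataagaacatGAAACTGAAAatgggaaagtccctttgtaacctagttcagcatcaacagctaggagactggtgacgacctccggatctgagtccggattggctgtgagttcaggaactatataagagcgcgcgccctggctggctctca
Ifit3: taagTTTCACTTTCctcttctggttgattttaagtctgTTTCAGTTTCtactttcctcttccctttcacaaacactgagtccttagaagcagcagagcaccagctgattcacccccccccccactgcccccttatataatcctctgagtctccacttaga
Ctss: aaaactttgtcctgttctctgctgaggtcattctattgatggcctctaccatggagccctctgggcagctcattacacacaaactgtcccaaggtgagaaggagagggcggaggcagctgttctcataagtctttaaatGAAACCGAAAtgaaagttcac

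Searched on both strands over 250 bases before the start, with no other motif searched, these letters stood in 3.46% of all 27025 windows and in 2.80% of the 4493 tested genes that had one. Among the first 15 higher genes they stood in 3 of 11 with a window (Ctss, H2-T23 and Ifit3), and among the first 15 lower genes in 0 of 10. Of the tested interferon list they stood in 7 of 11 (Ifit1, Ifit3, Stat2, Gbp3, Igtp, Irgm1 and Trim30a), a list chosen for that response. In the complement and antigen presentation list they stood in 1 of 10, B2m. A match is a description of letters and not a bound site, and C4b was among the genes with no window.

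C4b and H2-T23 lie in the same stretch of chromosome 17, the major histocompatibility complex. Between H2-K1 and H2-T23 (chr17:33996012-36032701) 30 genes were tested. The 9 that encode H2 molecules, complement or antigen processing (H2-K1, Tap1, H2-Ab1, H2-Aa, H2-Eb1, C4b, H2-D1, H2-Q4 and H2-T23) had log2 differences of 1.29 to 2.05, median 1.86. All 9 had an unadjusted p under 0.05, against 2.32% of all tested genes in that direction. Tap1 passed the filter with no control library at the filter level. The other 21 genes of the stretch, which have housekeeping and other roles, had differences of -0.44 to 0.80, median -0.01. Of these, 0 of 21 had an unadjusted p under 0.05, against 3.60% of all tested genes. The division by role was made after these values had been seen.

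Of the complement and antigen presentation list, 14 of 19 genes passed the filter, 1 of them, Tap1, with no control library at the filter level. At least 2 libraries of each group reached that level for 11 of the 14, against 5637 of all 5895 genes tested. For members that passed only or mainly through PMCA mice, passing and being high in PMCA mice are not separate facts. All 14 differences were above 0, with a median of 1.46, 1 gene passed the adjusted threshold and 10 had an unadjusted p under 0.05, against 2.32% of all tested genes in that direction. Without Y481 and Y486 the count was 7. The 5 members that missed the filter, among them Tap2, Nlrc5, Psmb8 and Psmb9, each had a higher mean CPM in PMCA mice, as did 56.9% of all untested genes. Their reads were few: Tap2, which pairs with Tap1, had 10 in all control and 47 in all PMCA mice, and Nlrc5, the activator of class I genes, had 25 and 75.

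H2-K1, a classical class I heavy chain, was measured at 147, 75.6, 87.7 and 59.6 CPM in control and 202, 137, 378 and 201 CPM in PMCA mice. The control mouse Y481 lay above the PMCA mouse Y487, so the groups overlapped. The log2 difference was 1.29 (SE 0.29; limma adjusted p = 0.227). Tap1, which carries peptides into the endoplasmic reticulum for loading, had 13.4, 8.40, 23.2 and 24.4 CPM against 54.1, 44.8, 105 and 58.3 CPM, with no overlap. Since no control library reached the filter level, this lack of overlap followed from how Tap1 passed the filter. Its log2 difference was 1.92 (SE 0.46; limma adjusted p = 0.227). H2-D1, a further class I chain, showed 1.96 with no overlap, from 75 reads in control and 344 in PMCA mice. B2m, the light chain of all of them, had 927, 332, 341 and 122 CPM in control and 1456, 448, 1144 and 659 CPM in PMCA mice and a log2 difference of 1.31 with a 95% interval of -0.37 to 3.0.

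Class II genes, which serve antigen presentation to helper T cells, pointed the same way with wide spread. H2-Ab1 was measured at 71.3, 29.4, 36.1 and 8.12 CPM in control and 93.7, 68.7, 224 and 121 CPM in PMCA mice, where Y481 exceeded Y487, and its log2 difference was 2.0 (SE 0.53; limma adjusted p = 0.617). H2-Eb1 had a difference of 1.86 from 22 and 90 reads. Cd74, the invariant chain that guides class II molecules, had 1.57 with a 95% interval of -0.27 to 3.41. Y489 had the highest level of H2-K1, Tap1, H2-D1, H2-Ab1, H2-Eb1 and Cd74, and Y486 that of B2m. Y485 had the lowest level of H2-K1, H2-D1, B2m, H2-Ab1 and Cd74.

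Of complement itself, C3, the central component that C4b helps to activate, stood at 35.7, 8.40, 7.74 and 2.71 CPM in control and 75.7, 35.8, 89.1 and 71.3 CPM in PMCA mice. The groups did not overlap, but the highest control mouse, Y481, and the lowest PMCA mouse, Y487, were nearly level. Y481 was the only control library at the filter level, so C3 passed mainly through the PMCA mice. With 14 reads in all control mice and 95 in all PMCA mice, the log2 difference was 2.73 (95% interval 1.38 to 4.09; limma adjusted p = 0.227). C1qa, a chain of the recognition subunit of the classical pathway made mainly by microglia, had 134, 67.2, 59.3 and 37.9 CPM against 137, 110.5, 231 and 153 CPM, where Y481 exceeded Y487. Its log2 difference was 1.17 (SE 0.32; limma adjusted p = 0.495), and its partner C1qb showed 0.69 (95% interval -0.05 to 1.43).

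**Figure D2:**
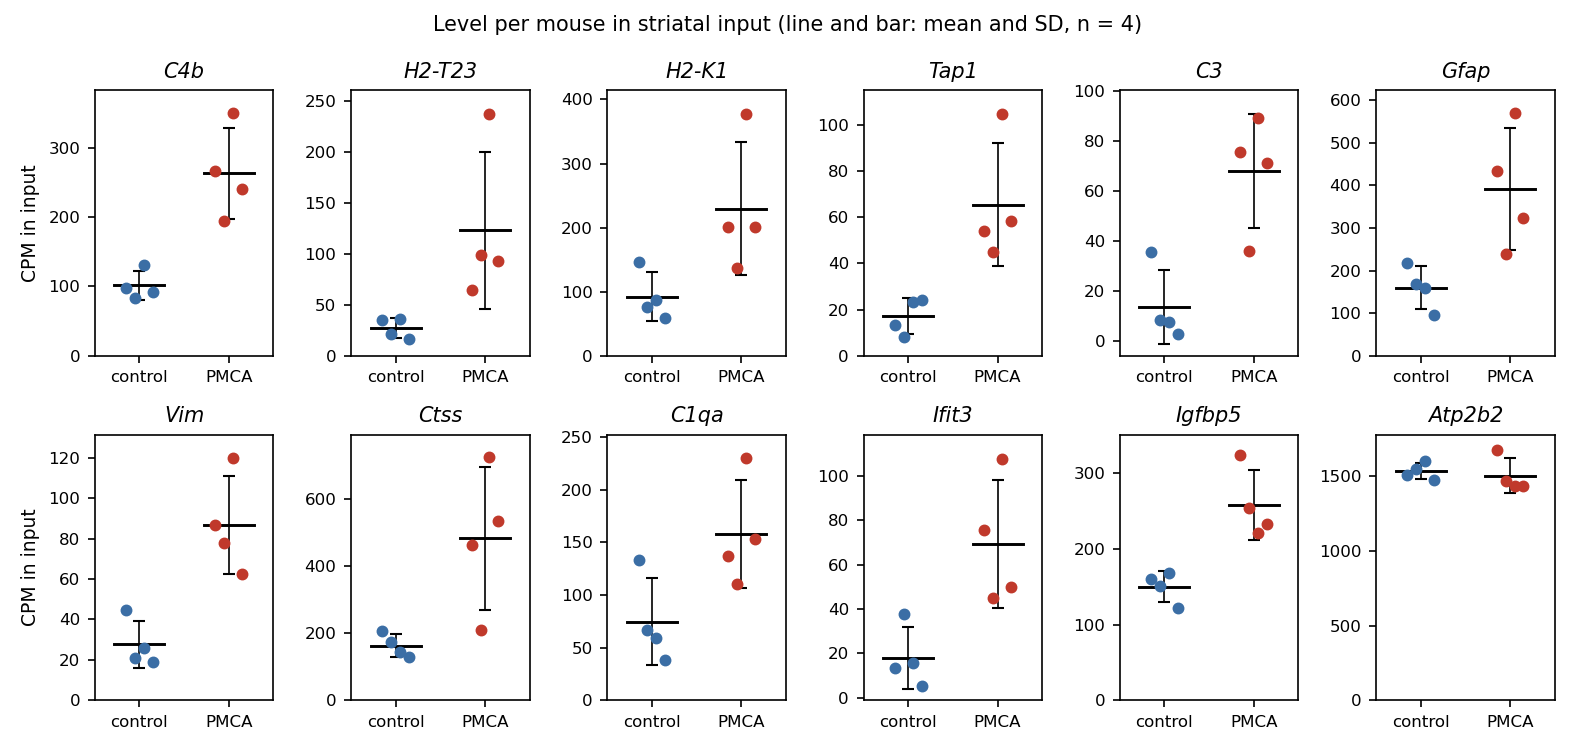
Input level (CPM, linear axis) of 12 genes in each mouse, with control mice in blue and PMCA mice in red; the line and bar give the mean and SD of 4 mice. PMCA mice lay above all control mice for C4b, H2-T23, Tap1, C3, Gfap, Vim, Ctss, Ifit3 and Igfbp5, the groups overlapped for H2-K1 and C1qa, and Atp2b2 was at a like level in both. Tap1 passed the filter with no control library at the filter level, which fixed its lack of overlap.

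Of the interferon response list, 13 of 28 genes passed the filter, 3 of them with no control library at the filter level. All 13 differences were above 0 (median 1.06), which for those 3 followed from how they passed. At least 2 libraries of each group reached the filter level for only 7 of the 13, against 5637 of all 5895 genes tested. For members that passed mainly through PMCA mice, such as Ifit3 with Y482 as its only control library, passing and being high in PMCA mice are not separate facts. Of the 13, 0 passed the adjusted threshold in limma and 7 had an unadjusted p under 0.05, against 2.32% of all tested genes in that direction. Without Y481 and Y486, 3 did, and the count was also 3 without Y486 or without Y489. Ifit3 had 13.4, 37.8, 15.5 and 5.42 CPM in control and 75.7, 44.8, 108 and 49.7 CPM in PMCA mice, which did not overlap, and a log2 difference of 2.12 (SE 0.52; limma adjusted p = 0.227). Oasl2, an antiviral member of the oligoadenylate synthetase-like family, showed 1.54 with 44.6, 21.0, 49.0 and 16.2 CPM against 177, 68.7, 95.3 and 49.7 CPM, so that all PMCA values lay above the control values, by less than 1 CPM at the edge. Lgals3bp, a secreted glycoprotein, showed 1.06, with the control mouse Y481 above the PMCA mouse Y490.

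The intervals of Irf9 and Ifit1 include 0. Irf9, a transcription factor of the interferon response, showed 0.94 (95% interval -0.30 to 2.19), and Ifit1, the first gene of the list, 0.60 (95% interval -0.27 to 1.46). Trim30a, an interferon-induced member of the tripartite motif family that is named here because 1 alternative called it, had a difference of 2.39 (SE 0.88). Of the 15 members that missed the filter, 12 had a higher mean CPM in PMCA mice and 3 in control mice. They included Isg15 with 11 reads in control and 4 in PMCA mice, and Irf7, a master regulator of the type I response, with 14 and 46.

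Only 6 of 25 reactive astrocyte genes passed the filter, and all 6 had differences above 0 (median 1.51). At least 2 libraries of each group reached the filter level for 3 of the 6, against 5637 of all 5895 genes tested. C3 and Vim passed with Y481 as their only control library, so for both, passing and being high in PMCA mice are not separate facts. Among the 6, C4b and C3 also belong to the complement and antigen presentation list, and Gfap also belongs to the list of general astrocyte markers. C4b passed the adjusted threshold. An unadjusted p under 0.05 was seen in 5 members, against 2.32% of all tested genes in that direction, and in 2 without Y481 and Y486. Gfap, the intermediate filament that marks reactive astrocytes, was measured at 218, 168, 159.9 and 94.8 CPM in control and 433, 239, 569 and 324 CPM in PMCA mice, with no overlap. The log2 difference was 1.27 (SE 0.26; limma adjusted p = 0.133). Vim, vimentin, the partner filament, had 44.6, 21.0, 25.8 and 19.0 CPM against 86.5, 77.6, 119.9 and 62.6 CPM, again with no overlap, and a difference of 1.67 (SE 0.36; limma adjusted p = 0.133). Both were among the 8 genes called when the read total of the library entered the fit. Of the 17 listed members that missed the filter, 9 had a higher mean CPM in PMCA mice and 8 in control mice. Lcn2, an acute phase protein that rises strongly in some reactive astrocytes, had 2 reads in control and 0 in PMCA mice.

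General astrocyte markers had a smaller median. Over 28 of 31 markers tested it was 0.16, with 7 higher and 1 lower at an unadjusted p under 0.05, against 2.32% and 1.27% of all genes. Without Y481 and Y486 the counts were 4 and 1, and without Y482, Y486 or Y490 the higher members numbered 3, 4 and 4. No member was lower without Y482, Y487 or Y489. Their summed level was 10568 to 11134 CPM in control and 11448 to 12604 CPM in PMCA mice. Aldh1l1, the gene whose regulatory sequence drives the Cre, had 8.91, 33.6, 25.8 and 29.8 CPM against 57.7, 38.8, 55.3 and 43.2 CPM, a difference of 1.11 with a 95% interval of 0.17 to 2.04. Slc1a3, a glutamate transporter, showed 0.38 with no overlap of the groups, and Aqp4, the water channel of astrocyte endfeet, 0.59. The markers with the most reads were Slc1a2, the main glutamate transporter, at 0.15 (95% interval -0.06 to 0.36), Glul, glutamine synthetase, at -0.11 (-0.37 to 0.14), and Cpe, a peptide-processing enzyme, at 0.02 (-0.23 to 0.27). Gja1, the gap junction protein, stood at -0.07.

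Microglia markers were tested for 11 of 20 genes, and all 11 differences were above 0, with a median of 0.69. Of these, 5 had an unadjusted p under 0.05 (8 without Y481 and Y486), against 2.32% of all tested genes in that direction. Ctss stood at 205, 172, 144 and 127 CPM in control and 461, 209, 722 and 534 CPM in PMCA mice, where the lowest PMCA mouse, Y487, lay just above the highest control mouse, Y481. Its log2 difference was 1.46 (SE 0.30; limma adjusted p = 0.227). Itgam, an integrin of myeloid cells, showed 1.19, and Csf1r, the receptor on which microglia depend, 0.60. The purine receptor gene P2ry12 had 0.70 (95% interval -0.01 to 1.41) and Cx3cr1, the fractalkine receptor, 0.53 (-0.07 to 1.13). The summed level of the 20 listed markers was 753 to 1235 CPM in control and 1021 to 2493 CPM in PMCA mice. The 3 C1q genes belong to this list and to the complement list.

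Markers of blood and infiltrating leukocytes were near the detection limit. Of 17 genes 8 were listed and 1 was tested, Lyz2, a lysozyme of myeloid cells, with a log2 difference of 1.34 (95% interval -0.15 to 2.82). Their summed level was 25.2 to 75.8 CPM in control and 38.8 to 138 CPM in PMCA mice. Of the 7 not tested, 5 had a higher mean CPM in PMCA mice and 2 in control mice. In total reads, Ptprc had 16 in control and 34 in PMCA mice, the T cell gene Cd3e 3 and 6, Cd8a 1 and 7, Nkg7 1 and 8, and the chemokine gene Ccl5 0 and 16, whereas Plac8 had 12 and 4 and Alas2, a gene of haem synthesis, 2 and 0. Igj, the joining chain of secreted antibodies and the gene with the most positive difference of all those tested (3.5), was at 0 in the control mice Y482 and Y485 and at 31.2 and 18.1 CPM in Y481 and Y483, against 90.1, 5.97, 70.7 and 90.7 CPM in PMCA mice. The part that microglia, leukocytes and the Rn45s share had in the complement, antigen presentation, interferon and reactive astrocyte values was not tested.

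Of the 15 higher genes with the smallest p, those in none of the 4 lists included H2-T23, Igfbp5 and Itm2b. Igfbp5, a secreted binding protein of insulin-like growth factors, had 160.5, 151, 168 and 122 CPM against 324, 254, 221 and 233 CPM, a difference of 0.77 (SE 0.19; limma adjusted p = 0.275). Itm2b, a membrane protein linked to familial dementias, had 0.53 (SE 0.14; limma adjusted p = 0.474), and neither gene's groups overlapped.

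No gene was lower at the adjusted threshold in limma, and 75 were at an unadjusted p under 0.05. Mir6236, listed under a microRNA symbol and named here after its values were seen, was called lower without Y481 (a difference of -1.22, limma adjusted p = 0.00507). It was also called lower without both Y481 and Y486 (-1.26, limma adjusted p = 0.00185), against -0.74 (limma adjusted p = 0.9996) with all mice. Whether its reads come from a microRNA was not tested. Ccnk, a cyclin of kinases that act in transcription elongation, had the smallest p of the 75 lower genes, at 98.1, 71.4, 51.6 and 51.5 CPM in control and 32.4, 20.9, 9.22 and 30.2 CPM in PMCA mice. The groups did not overlap and the log2 difference was -1.62 (SE 0.42; limma adjusted p = 0.387). The other 14 genes of the first 15 included receptors and channels, with Bai3, an adhesion receptor of synapses, at -0.57, the potassium channel gene Kcnh3 at -0.97, the cation channel gene Trpc1 at -0.83 and the progesterone receptor gene Pgr at -1.23. They also held the membrane glycoprotein gene Tpbg at -1.52, the cell adhesion gene Cntnap5a at -0.90, the scaffold gene Magi1 at -0.87 and the guidance cue gene Sema3e at -0.74. Sytl5, a vesicle trafficking gene, Ube2g1, a ubiquitin-conjugating enzyme, and Npepps, an aminopeptidase, had -0.90, -0.91 and -0.59. Rn45s, also among them, had -1.25.

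**Figure D3:**
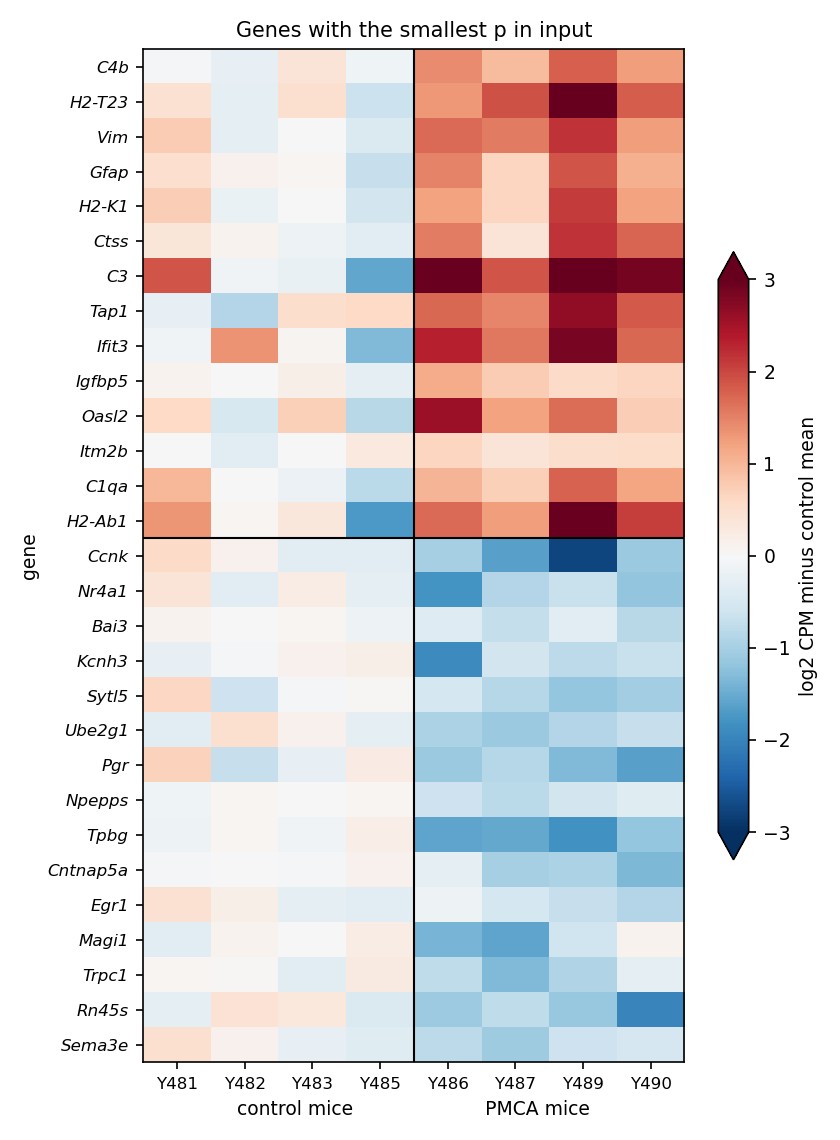
Log2 CPM of each mouse minus the control mean for 14 of the 15 higher genes and the 15 lower genes with the smallest p, with control mice in the 4 left columns and PMCA mice in the 4 right columns. Y489 has the darkest red in H2-T23, Tap1 and H2-Ab1, and Y481 is reddest of the control mice in C3, C1qa and H2-Ab1.

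Immediate early genes, which neurons switch on within minutes of activity, mostly had differences below 0. Of 18 genes 8 were tested, with a median log2 difference of -0.58, 7 below 0 and 3 with an unadjusted p under 0.05, against 1.27% of all genes in that direction (2 without Y481 and Y486). Nr4a1, an activity-induced nuclear receptor, stood at 116, 71.4, 103 and 73.1 CPM in control and 25.2, 47.8, 55.3 and 38.9 CPM in PMCA mice, with no overlap and a difference of -1.13 (SE 0.32; limma adjusted p = 0.585). Egr1, a zinc finger transcription factor, had 548, 453, 330.2 and 314 CPM against 360.4, 278, 249 and 218 CPM, where the control mice Y483 and Y485 lay below the PMCA mouse Y486, and a difference of -0.56 (SE 0.19). Arc, a protein of synaptic plasticity, showed -0.60 with no overlap, at 174, 143, 116 and 181 CPM against 86.5, 107, 105 and 102 CPM.

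Not all of the family pointed down. Junb and Fosl2, subunits of the AP-1 transcription factor, had -0.74 and -0.65 with intervals that include 0, and Jun 0.47. Fos missed the filter, with 11 reads in control and 9 in PMCA mice, and so did Npas4 with 32 and 37. Of the 10 listed members not tested, 6 had a higher mean CPM in control mice and 4 in PMCA mice.

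Dopamine and cAMP signalling genes were tested for 18 of 20, with a median of -0.11 and 3 lower at an unadjusted p under 0.05, against 1.27% of all genes. The count was 2 without Y481 and Y486, 1 without Y482, 1 without Y489, 1 with quantile scaling and 0 without the variance trend and robust moderation. Among these 3, Prkaca, the catalytic subunit of protein kinase A, and Rgs2, which shortens G protein signals, showed -0.61 and -0.48 with overlapping groups. The dopamine receptor Drd1, listed under its older symbol Drd1a, stood at 339, 453, 415 and 484.7 CPM in control and 306, 379, 384 and 389 CPM in PMCA mice, with overlapping groups and a difference of -0.21 (95% interval -0.53 to 0.11). The receptors Drd2 and Adora2a had -0.12 (95% interval -0.57 to 0.32) and -0.05 (-0.64 to 0.55). Ppp1r1b, also called DARPP-32, the integrator of dopamine signals, had -0.19 (-0.41 to 0.03).

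Projection neuron markers as a whole, 24 of 27 tested, had a median of -0.11 and 1 of them was lower at an unadjusted p under 0.05, against 1.27% of all genes. That count was 4 without Y481, 3 without Y486, 2 without Y490 and 4 without both Y481 and Y486. Their summed level was 16259 to 17610.0 CPM in control and 14935 to 17449 CPM in PMCA mice. Pde10a, a phosphodiesterase of these cells, had -0.11 (-0.30 to 0.07, 95% interval), Penk, the enkephalin precursor, -0.03 (-1.01 to 0.95), and the transcription factor genes Bcl11b 0.00, Foxp1 -0.09 and Rarb -0.43. Neuropeptide precursors had a median of -0.11 over 10 tested genes, with Tac1, the substance P precursor, at -0.34 and Sst, somatostatin, at -0.42. General neuronal markers had a median of -0.01 over 18 genes, with Snap25, a protein of vesicle fusion, at -0.06. An unadjusted p under 0.05 was seen in 0 of 10 neuropeptide genes and 0 of 18 neuronal markers, against 3.60% of all tested genes. Interneuron markers were tested for 5 of 14 and cortical neuron markers for 3 of 15, with medians of -0.07 and 0.01.

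Synaptic genes had differences close to that of all genes. GABA receptor subunits (13 tested, median -0.06), glutamate receptor subunits (16, median -0.06), postsynaptic scaffolds (17, median -0.03) and vesicle release genes (18, median -0.03) each had 0 members with an unadjusted p under 0.05. The share of all tested genes was 3.60%, so a count of 0 in lists this short tells little. Gria1, an AMPA receptor subunit, showed -0.03 and Dlg4, the scaffold PSD-95, 0.00 (95% interval -0.26 to 0.26).

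Among 14 GABA and glutamate transport and metabolism genes the median was -0.02, and genes of both directions had an unadjusted p under 0.05. Slc38a3, a glutamine transporter of astrocytes, had 22.3, 25.2, 23.2 and 29.8 CPM in control and 79.3, 56.7, 46.1 and 47.5 CPM in PMCA mice, with no overlap and a difference of 1.15 (SE 0.37). It was the 1 member of this list that passed the filter with no control library at the filter level, so its lack of overlap followed from how it passed. Slc6a11, the astrocyte transporter GAT-3, had 0.27 (95% interval -0.25 to 0.78).

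The pump family that the virus augments had no member past a threshold in input. Atp2b2, the mouse gene for pump 2, stood at 1511, 1549, 1602 and 1479 CPM in control and 1679.6, 1472, 1433 and 1439 CPM in PMCA mice. Y486 was above all other mice and the remaining PMCA mice were below all control mice. The log2 difference was -0.03 (SE 0.10, 95% interval -0.24 to 0.18). The virus carries a human sequence, whose reads reach the mouse gene only where both are alike, so this value does not measure the delivered pump as a whole. Atp2b1, the pump of most cells, had -0.07 (95% interval -0.32 to 0.18), Atp2b3 -0.20 (-0.69 to 0.30) and Atp2b4 0.56 (-0.12 to 1.23). Over 21 genes of calcium stores, exchange and buffering the median was -0.04, and 0 of 21 had an unadjusted p under 0.05, against 3.60% of all tested genes. Itpr1 and Itpr2, the store release channels with most weight in neurons and in astrocytes, had -0.15 and 0.34.

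Oligodendrocyte markers (13 of 18 tested) had a median of 0.05 and their precursors (8 of 13) 0.14, with 0 members past an unadjusted p of 0.05, against 3.60% of all tested genes. Mbp, a main myelin protein, had 0.07 (95% interval -0.16 to 0.31), and Pdgfra, the precursor receptor, 0.24. Endothelial markers were tested for 2 of 16 genes, Flt1 at -0.18 and Slc2a1 at 0.29, ependymal markers for 1 of 10, Tppp3 at 0.00, and mural cell and fibroblast markers for 0 of 15.

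Housekeeping and stress programmes gave medians near 0 as well. Cytosolic ribosomal protein genes had 0.02 over 18 genes with 1 higher, Rpl4 at 0.35, and nuclear-encoded respiratory chain genes -0.04 over 24. Heat shock and unfolded protein response genes had -0.15 over 15, cholesterol genes -0.09 over 8 and p53 targets 0.00 over 6, all with 0 members past an unadjusted p of 0.05. Nuclear noncoding RNAs had 0.03 over 9, with Malat1 at 0.14 and Neat1 at 0.67.

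**Figure D4:**
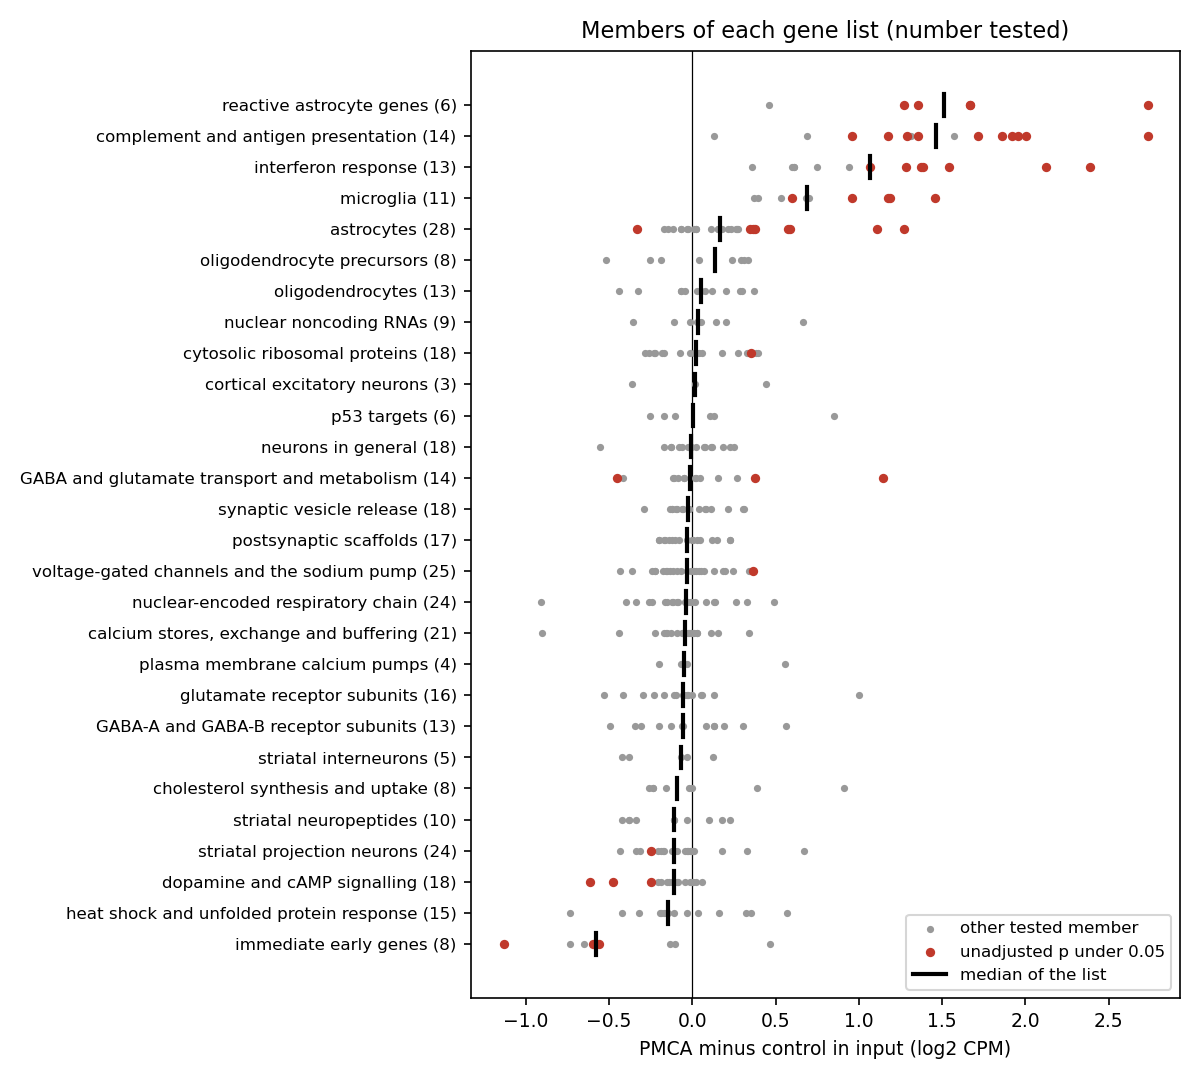
PMCA minus control difference in input (log2 CPM) of each tested member of the lists with at least 3 tested members, with the number tested in parentheses, red points for an unadjusted p under 0.05 and a bar for the median. The reactive astrocyte, complement and antigen presentation, interferon and microglia medians lie at 0.69 to 1.51 and immediate early genes at -0.58, while every other median lies between -0.15 and 0.16.

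The input values were set beside those of the astrocyte precipitate, and the difference between both was tested directly in limma over 8091 genes. The treatment difference was unlike between fractions for 3 genes (0.0371%) at an adjusted p under 0.05. Atp2b2 had a log2 difference of 2.08 in the precipitate against -0.03 in input, 2.11 apart (adjusted p = 2.73e-05). 9430020K01Rik, a gene of cell junctions now named Jcad, had 2.19 against -0.11, 2.30 apart (adjusted p = 2.73e-05). Peg3, an imprinted zinc finger gene, had 1.45 against -0.11, 1.56 apart (adjusted p = 0.0122), and this call was lost without Y483, Y487, Y489 or Y490, which left 2 genes. All 3 differed in the precipitate and not past any threshold in input.

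In the precipitate alone 36 of 7094 genes (0.507%) passed an adjusted p under 0.05 in limma. Of these 30 were tested in input, where 7 had an unadjusted p under 0.05, against 3.60% of all genes tested in input, all with a higher level in PMCA mice (2.32% of all genes), among them C1qa, C1qc, Igfbp5, Lgals3bp, Oasl2 and Sulf2. Igfbp5 stood at 0.91 in the precipitate and 0.77 in input, Lgals3bp at 1.14 and 1.06, and Oasl2 at 1.37 and 1.54. C1qa and C1qc had 2.95 and 3.05 in the precipitate against 1.17 and 0.96 in input. Of the genes called in input, C4b had 0.68 in the precipitate (limma adjusted p = 0.315) and H2-T23 1.15 (limma adjusted p = 0.518). The fractions were -0.67 apart for C4b and -0.91 apart for H2-T23, at limma adjusted p = 0.913 for C4b and 0.918 for H2-T23. Both fractions come from the same 8 mice, so they are not independent samples of the treatment.

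**Figure D5:**
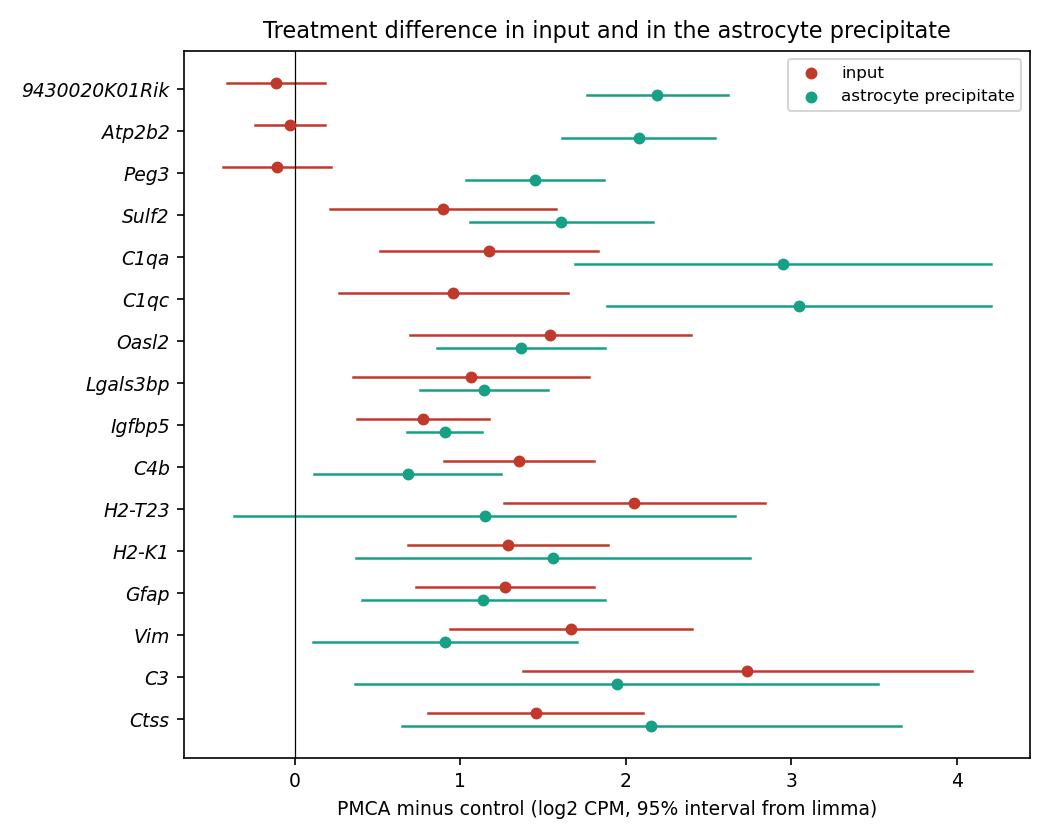
PMCA minus control difference (log2 CPM) with its 95% interval from limma for 16 genes in input and in the astrocyte precipitate. 9430020K01Rik, Atp2b2 and Peg3 are near 0 in input and at 1.45 to 2.19 in the precipitate, and for the other genes except C1qc the intervals of both fractions overlap.

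The precision of these differences followed depth. With the tested genes divided into 3 equal classes by reads, the 95% interval reached a median of 0.87 to either side on the log2 scale in the lowest class (median 13 reads per library), 0.63 in the middle class (24.1 reads) and 0.43 in the highest (60.5 reads). Changes smaller than these widths were mostly not detectable at this depth. The intervals are not adjusted for the number of genes tested, so passing the adjusted threshold took larger changes. Vim at 1.67 and Gfap at 1.27 exceeded these widths and were not called.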

How the data were processed

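Striatal input RNA of 8 mice was measured as 1 library per mouse. Per the labels' protocols, libraries were stranded, depleted of ribosomal RNA and sequenced on an Illumina HiSeq instrument. The submitters' processing notes name mm10, STAR, HTSeq, edgeR and limma without versions. Not given in the sources used here are the strand setting and how reads with several matches were counted. The deposited files hold log2 CPM, computed by the authors per library without pooling, for genes with at least 5 reads over all 16 libraries.

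The deposited log2 values could be turned back into whole reads: 100% of the values lay within 0.01 of a whole read. They served for depth, filters and alternatives, and the test stayed on the deposited unit. Reads carry no molecular identifiers. limma 3.58.1 (R 4.3.3, statmod 1.5.0, jsonlite 2.0.0) was fitted with a variance trend and robust moderation, with Benjamini-Hochberg adjustment over 5895 genes. The script was tested on simulated data. Differences were taken between group means on the deposited log2 scale, whose prior count understates changes of genes with few reads. A spreadsheet had turned 21 gene names into dates, and these were named nowhere. Some other genes are counted in their lists but not reported here by name. Coordinates are those of RefSeq genes on GRCm38.p6, to which 12552 names matched by symbol, 661 by an older name and 64 not. List members were matched by symbol, and 4 by an older one (Ctgf, Drd1a, Ppap2b and Scn2a1).

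The named genes were the 4 pumps, every called gene with the 15 higher and 15 lower genes of smallest p, the first tested gene and the 3 of smallest p in each list, and the 3 cell type markers with the most reads. Genes named beyond that were chosen after their values were seen. The comparison, the gene lists and the tests were chosen with earlier results of these data known. Alternatives changed the variance model, prior count, scaling, filter and covariate, and left out each mouse.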

Additional observations from a re-analysis of the deposited data

Results flagged for a closer look

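Of 78 groups of 4 mice examined gene by gene, 2 held a mouse far from the other 3, and chance alone gives about 1 in 20. Atp2b2, the mouse gene for pump 2, stood at 10.71 log2 CPM in the PMCA mouse Y486 and at 10.48 to 10.52 in the other PMCA mice. Atp2b3, a neuronal pump gene of the same family, stood at 7.48 log2 CPM in the control mouse Y483 and at 6.97 to 7.02 in the other control mice.

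The treatment difference was unlike between the astrocyte precipitate and input for 3 genes, by the direct test in limma. The precipitate difference exceeded that of input by 2.30 on the log2 scale for 9430020K01Rik (Jcad), by 2.11 for Atp2b2 and by 1.56 for Peg3.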

How the results depend on the processing

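The count of 2 genes called in input depended on the fit. It was 1 without variance trend and robust moderation (Trim30a in place of both), with voom weights, with median-of-ratios scaling and with a filter of 30 reads (C4b in each). It was 8 with the read total as a covariate, and 0 to 10 when single mice were left out, with 10 without Y481, 1 of them lower (Mir6236). Of the alternatives chosen after seeing the data, leaving out both Y481 and Y486 gave 6, 1 of them lower (Mir6236), leaving Rn45s out of the totals 1, and library weights 8, while sex as a covariate gave the same 2 genes (limma adjusted p = 0.00228 for C4b and 0.0231 for H2-T23). A mean prior of 2 reads, library totals, quantile scaling, no filter and 10 unscaled reads kept C4b and H2-T23. C4b had adjusted p-values of 0.00142 to 0.283 over all alternatives and H2-T23 of 0.00142 to 0.720, and their differences stayed at 1.21 to 1.49 and 1.68 to 2.45. Atp2b2 stayed between -0.09 and 0.02. No called value changed sign, and a change of sign between values whose 95% intervals both include 0 was not treated as a reversal. Members with an unadjusted p under 0.05 numbered 2 to 6 for reactive astrocyte, 0 to 9 for interferon, 4 to 12 for complement and antigen presentation, 3 to 8 for microglia, 3 to 8 for astrocytes, 2 to 4 (lower) for immediate early genes, 0 to 4 (lower) for dopamine and cAMP signalling and 0 to 4 (lower) for projection neurons. The cause of these shifts was not tested, except that leaving out mice or genes reduces what is tested.

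Control and PMCA inputs share no mouse and the labels give no pairing between them, so none was fitted. In the order of the mice given above, scores on the leading principal component rose in both groups. They were -22.6, 2.89, 8.17 and 12.6 in control and -18.6, 0.73, 6.76 and 10.1 in PMCA mice. The mice with Xist reads (Y481, Y482, Y486 and Y487) scored -22.6 to 2.89 and those with Y-linked reads 6.76 to 12.6, so the score also divided the sexes. Whether sex or the handling of mice in matched pairs had a part in this order was not tested. For the precipitate against input difference, the mouse as a replicate block again gave 3 calls, the same genes, and 2 to 3 when single mice were left out of the fit without it. At 198462 to 419458 reads per library, about 30 CPM was the lowest level tested.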
